A study of Mus musculus with 12 samples.

Results

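The loss of the prolactin receptor was examined in islets on day 9.5 of gestation (P9.5), in the 6 arrays of that stage out of 12 in the series. Total RNA of pancreatic islets of 3 Prlr+/+ and 3 Prlr-/- samples, all on the 129Sv background and labelled as biological replicates, was hybridised to 1 Affymetrix MoGene_1.0_ST array each. The Prlr-/- mice lack the receptor in every cell of the body and do not carry embryos without help, so the pregnant Prlr-/- mice had received a progesterone pellet at the start of pregnancy. The pregnant Prlr+/+ mice are not described as having one, so genotype and pellet cannot be told apart in this comparison. The paper cites an earlier report that progesterone levels of pregnant Prlr-/- mice with a pellet resemble those of pregnant Prlr+/+ mice. The other 6 arrays are of non-pregnant (NP) mice of both genotypes, 3 each, for which no pellet is described, and they serve here to show the genotype difference before pregnancy. The labels do not say whether islets of several mice were pooled for an array.

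The prolactin receptor is a cytokine receptor that binds prolactin and the placental lactogens. On binding, its kinase JAK2 phosphorylates STAT5, which enters the nucleus and turns on target genes, among them inhibitors of the SOCS family that dampen the signal. In rodent islets this pathway is known for its part in the growth of the beta cell mass and in the serotonin synthesis of pregnancy.

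A gene was called when the fold change between the genotypes was at least 1.5 and the Benjamini-Hochberg adjusted p from limma was under 0.05 over all 35511 probe sets. Values are log2 expression. A log2 fold change is the Prlr-/- mean minus the Prlr+/+ mean at P9.5, given ± its standard error from limma (n = 3 arrays per group), and every adjusted p below is from that fit. By this rule 82 probe sets were called (0.231%). Of these, 73 were lower (0.206%) and 9 were higher (0.0253%) in Prlr-/- islets. Counting probe sets with a single gene symbol, 66 genes were called, 61 of them lower and 5 higher (over the brightest probe set of every gene, 0.301% were lower and 0.0251% higher). At an unadjusted p under 0.05, by contrast, the directions were near balance, with 934 probe sets lower and 991 higher. Over the brightest probe sets of all 19938 genes, 521 were lower and 662 higher at that p. These are the background for the list counts below.

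Short stretches of promoter are shown first, because STAT5 is the main factor below the receptor and its core motif can be read from sequence. The motif searched was TTCNNNGAA, which is the same on both strands, in the 300 bases from 250 before to 50 after each RefSeq gene start (GRCm38.p6). It was found for 7 of the 49 lower genes that have a promoter in the table (14.3%), against 1403 of 15614 measured genes (8.99%), and for 0 of the 4 higher genes. The share was counted without a test, and a match does not show that STAT5 binds there. The paper reports putative STAT5 sites in the promoters of all genes of its islet pregnancy signature, which is described below. It does not state the length searched, so the counts here are not comparable with that result. The windows of 30 bases around each match follow, 5′ to 3′ on the strand of the gene, with the fixed letters of the motif in capitals.
Cish, chr9:107296654-107296683, plus strand: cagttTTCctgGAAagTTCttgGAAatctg
Ivd, chr2:118861896-118861925, plus strand: ttcggctggcTTCcgaGAAcgattggctac
Fgl2, chr5:21372627-21372656, plus strand: gcccgcccttTTCtggGAActcagaacgcc
Cntn3, chr6:102464737-102464766, minus strand: ggatgtaaatTTCtgtGAAtgatacagagt
Aldh9a1, chr1:167349771-167349800, plus strand: ctcattatccTTCcagGAActccttcggga
Igfals, chr17:24877598-24877627, plus strand: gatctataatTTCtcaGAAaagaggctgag
Igfals, chr17:24878163-24878192, plus strand: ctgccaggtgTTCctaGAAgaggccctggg
Prok1, chr3:107238720-107238749, minus strand: aattttaattTTCacaGAAaaggcaacctc
Prok1, chr3:107238746-107238775, minus strand: tgccagccagTTCctgGAActggataaatt
Cish held 2 copies within 1 window, at its gene start. Igfals held 1 copy in each of 2 alternative promoters, and Prok1 held 2 copies close together in 1 stretch.

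One array stands apart and is named before the results. Xist, the RNA that coats the silent X chromosome, was at 3.8 in the second Prlr+/+ replicate at P9.5, against 10.3 to 10.7 in the other 5 arrays at P9.5, while 3 Y-linked genes were at 3.3 to 4.5 in all 6 arrays. Over 301 X-linked genes this array differed from the other Prlr+/+ arrays by a median of 0.10, beside 0.05 over 9657 autosomal genes. Of the called genes, Lonrf3, Rbmx2, Tmem255a and Pcsk1n are X-linked. Without this array 63 probe sets were called, and 47 of the 66 genes were among them. The part of this array in the results was not tested further.

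The hormones that define islets were at high levels in all 6 arrays. Ins2 was at 10.7 to 10.9, Iapp at 12.5 to 12.6, Gcg at 13.8 in every array and Sst at 13.1 to 13.4. Acinar markers, from the exocrine cells that make digestive enzymes, were high too, with an array mean over 17 of them of 8.80 to 9.85 in Prlr+/+ and 8.46 to 9.82 in Prlr-/- islets. Cpa1, a pancreatic carboxypeptidase, was at 11.5 to 12.4 and 10.9 to 12.3. Arrays of 1 genotype correlated at 0.979 to 0.987 across probe sets (6 pairs) and arrays of different genotype at 0.98 to 0.988 (9 pairs), ranges that overlap almost entirely. Over all genes the median log2 fold change was 0.00, with a 5th percentile of -0.20 and a 95th percentile of 0.23.

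The 61 lower genes had a median log2 fold change of -1.07. Of these, 33 fell at least 2-fold, 8 at least 3-fold and 5 at least 4-fold, while the highest fold among the 5 higher genes was 1.91. In all 66 genes the 3 Prlr-/- arrays did not overlap with the 3 Prlr+/+ arrays, beside 2.91% of all probe sets that lay wholly below and 3.16% that lay wholly above. Since islet RNA was measured in bulk, fewer cells of a type and less RNA per cell cannot be told apart. In a fit of the 6 P9.5 arrays by themselves, 39 probe sets were called and 28 of the 66 genes were among them. Leaving out 1 array at P9.5 left 47, 58 and 49 called probe sets for Prlr-/- replicates 1, 2 and 3, and 51, 63 and 71 for Prlr+/+ replicates 1, 2 and 3. Of the 66 genes, 36 were called in each of these 6 fits and 30 lost the call in at least 1, including the 5 higher genes. Some of the 36 were not called in the fit of the 6 P9.5 arrays by themselves. They were Cldn8, Slc2a13, Gadd45a, Dnah8, Lrrc8c, Rnf182, Cdh7, Ggact, Slc50a1 and Hemk1.

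The genes next to the receptor in its pathway came first. Of 25 measured genes of JAK/STAT signalling and its feedback, 2 fell and 23 did not pass, with a list median of 0.00. Both that fell are feedback inhibitors. Cish, the inhibitor that STAT5 itself induces, was at 6.1, 6.3 and 5.8 in the Prlr-/- arrays and at 8.6, 8.7 and 8.5 in the Prlr+/+ arrays (log2 fold change -2.53 ± 0.361, adjusted p = 0.0117). The nearest arrays of the groups lie 2.2 units apart. In non-pregnant islets Cish varied more, with an SD of 0.60 in Prlr+/+ and 0.81 in Prlr-/- islets against 0.10 and 0.25 at P9.5 (n = 3 each), and the fit shares its spread over the 4 groups. Without 1 array the adjusted p was 0.0401 to 0.0743, and the call was lost without Prlr-/- replicate 1 or 3 or Prlr+/+ replicate 1 or 2. Socs2, the other inhibitor, was at 7.4, 7.6 and 7.5 without and 9.3, 9.2 and 8.8 with the receptor (log2 fold change -1.6 ± 0.18, adjusted p = 0.00195). It was the only 1 of the 66 genes called through 2 probe sets, the other at -1.20 (adjusted p = 9.76e-04). The kinase and its factors were chosen for mention after their values were seen. Jak2 had a log2 fold change of 0.10 and Stat5a of 0.03, neither of which passed, and Stat5b was at 7.9 in each of the 6 arrays. No probe set carries the symbol Prlr alone, so no level of the receptor's own RNA is given.

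Growth genes differed in both directions. Myc, a transcription factor of cell growth, was at 6.1, 5.9 and 6.0 in Prlr-/- islets and 7.2, 7.5 and 7.9 in Prlr+/+ islets (log2 fold change -1.53 ± 0.218, adjusted p = 0.0117). Gadd45a, which responds to DNA damage and other stress, was at 7.7, 7.5 and 7.4 in Prlr-/- and 9.2, 8.6 and 8.5 in Prlr+/+ islets (log2 fold change -1.23 ± 0.164, adjusted p = 0.0072). Both genes were clearly separated between the genotypes, by 1.1 and 0.8 units at the nearest arrays. Btg1, which restrains proliferation, went the other way, at 10.0, 10.3 and 10.3 in Prlr-/- and 9.3, 9.6 and 9.5 in Prlr+/+ islets (log2 fold change 0.73 ± 0.118, adjusted p = 0.0272). The call of Myc was lost without any 1 Prlr-/- array or Prlr+/+ replicate 2 (adjusted p up to 0.0621), and that of Btg1 without Prlr-/- replicate 2 or 3 or Prlr+/+ replicate 1 or 3 (up to 0.14). Among 33 cell cycle genes 0 passed in limma and 0 had an unadjusted p under 0.05, with a median of 0.13. Top2a, a topoisomerase of dividing cells, had the largest value of the list at 0.50 (adjusted p = 0.977). Of 25 known STAT5 and lactogen targets, Cish, Socs2 and Myc fell and 22 did not pass, and the list median was 0.07. Bcl6, a repressor that lactogen signalling lowers, had a log2 fold change of 0.90 that did not pass (adjusted p = 0.489), and was chosen for mention after its value was seen.

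**Figure D1:**
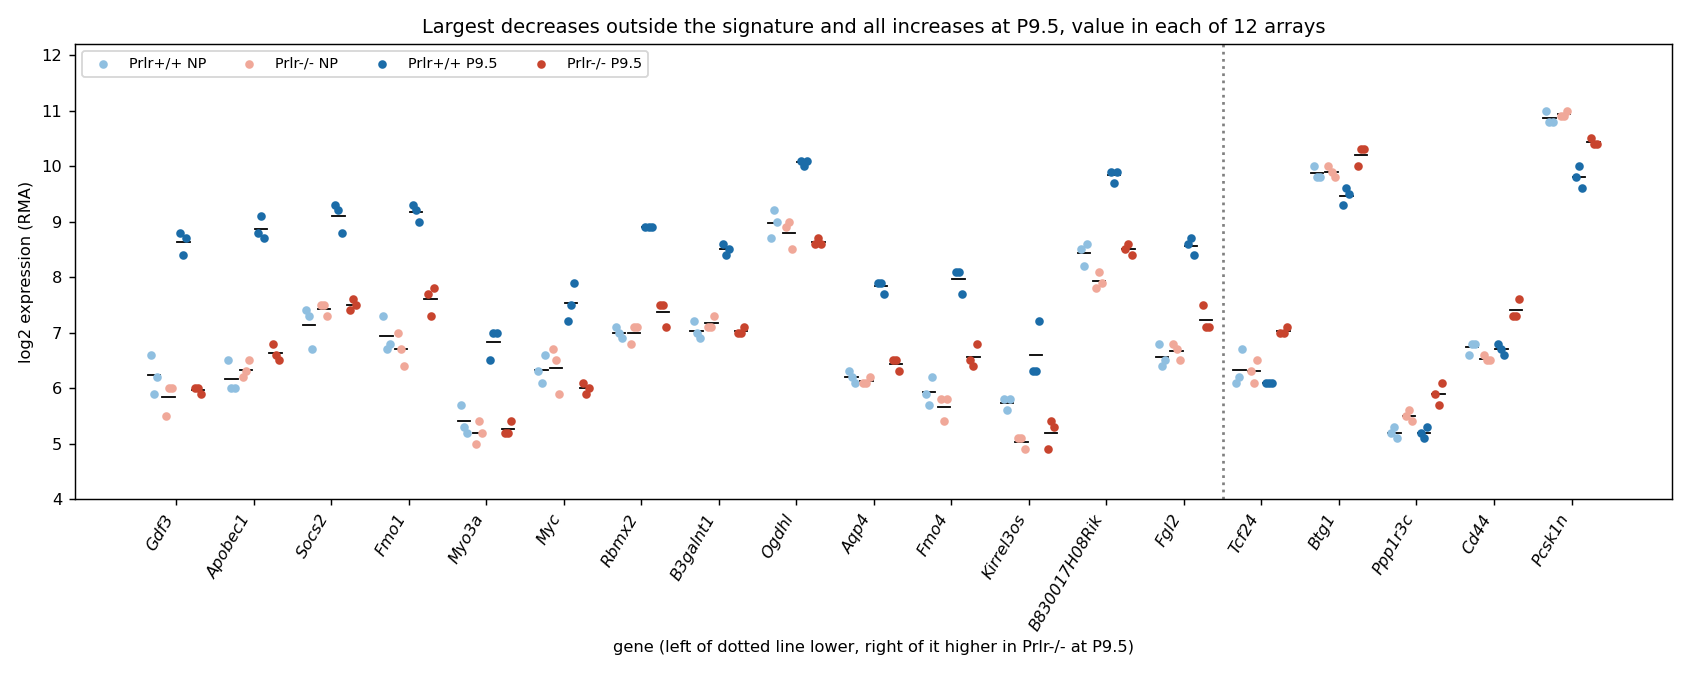
Log2 expression (RMA, vertical axis) in each of the 12 arrays for the 14 largest decreases outside the 12-gene signature and, right of the dotted line, the 5 increases (horizontal axis). Points are arrays, colours are the 4 groups and short black lines are group means. For Gdf3 the 3 arrays of pregnant Prlr+/+ mice span 8.4 to 8.8, and those of pregnant Prlr-/- mice span 5.9 to 6.0, near the non-pregnant arrays.

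Secreted proteins and receptors gave the largest decrease outside the signature. Of these, 6 fell and 1 rose. Gdf3, a TGF-beta family ligand known from early embryos, was at 6.0, 6.0 and 5.9 in Prlr-/- islets and at 8.8, 8.4 and 8.7 in Prlr+/+ islets (log2 fold change -2.67 ± 0.185, adjusted p = 4.84e-05), a 6.35-fold difference. Acvr1c, also known as ALK7, a receptor of the same family that is prominent in islets, was at 7.1, 6.9 and 7.3 in Prlr-/- and 8.2, 8.3 and 8.4 in Prlr+/+ islets (log2 fold change -1.20 ± 0.12, adjusted p = 9.76e-04). Bmp1 bears the name of the family but is a metalloprotease that trims procollagen and frees growth factors. It was at 7.8, 8.0 and 7.9 in Prlr-/- and 8.7, 8.6 and 8.8 in Prlr+/+ islets (log2 fold change -0.80 ± 0.123, adjusted p = 0.0206). A ligand, a receptor and an extracellular protease were thus lower. The other 32 of 35 measured TGF-beta family genes did not pass, and the median of the list was 0.00. The call of Bmp1 was lost without any 1 of the 6 arrays (adjusted p 0.0518 to 0.122).

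Fgl2, a membrane prothrombinase that also acts as a soluble immune regulator, was at 7.5, 7.1 and 7.1 in Prlr-/- and 8.6, 8.7 and 8.4 in Prlr+/+ islets (log2 fold change -1.33 ± 0.147, adjusted p = 0.00174). Igfals, which stabilises insulin-like growth factors in the circulation, fell by 1.03 on the log2 scale, and Prok1, a secreted ligand of G protein-coupled receptors, fell by 0.87. Fgl2, Igfals and Prok1 are among the genes with the motif shown above. The call of Prok1 was lost without Prlr-/- replicate 1 or Prlr+/+ replicate 1 (adjusted p up to 0.0571). Among 29 genes of insulin and IGF growth signalling 0 passed in limma (4 lower and 2 higher at an unadjusted p under 0.05), with a median of 0.00. That list does not hold Igfals. Igfbp5, an IGF-binding protein, had the lowest value in it, -0.87 (adjusted p = 0.133). Cd44, the cell surface receptor for hyaluronan, was higher, at 7.3, 7.3 and 7.6 in Prlr-/- and 6.8, 6.7 and 6.6 in Prlr+/+ islets (log2 fold change 0.70 ± 0.108, adjusted p = 0.021). Its call held without Prlr-/- replicate 2 but was lost without any other 1 of the 6 arrays (adjusted p up to 0.0997).

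RNA, chromatin and transcription genes were lower in 9 cases and higher in 1. Apobec1, the cytidine deaminase that edits the apolipoprotein B messenger RNA, was at 6.8, 6.6 and 6.5 in Prlr-/- and 8.8, 9.1 and 8.7 in Prlr+/+ islets (log2 fold change -2.23 ± 0.158, adjusted p = 4.84e-05). It was the 1 of 11 measured editing deaminases and cofactors that fell, and the list median was -0.03. A1cf, its RNA-binding cofactor, was at 0.53 on the same scale (adjusted p = 0.304) and was chosen for mention after its value was seen. Rbmx2, a spliceosome protein encoded on the X chromosome, was at 7.5, 7.5 and 7.1 in Prlr-/- islets and at 8.9 in each Prlr+/+ array (log2 fold change -1.53 ± 0.126, adjusted p = 1.74e-04). The Prlr+/+ array with low Xist did not differ from the other two here.

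Smaller decreases in this group were those of Hsbp1, which binds heat shock factor (log2 fold change -1.33), Syce2, a protein of the meiotic synaptonemal complex (-1.07), Ncoa7, a nuclear receptor coactivator (-0.80), Dnmt3b, a de novo DNA methyltransferase (-0.70), Hopx, a homeodomain protein that does not bind DNA (-0.70), Hemk1, a methyltransferase of translation release factors (-0.70), and Ikzf4, a zinc finger factor known from T cells (-0.67). Hsbp1 was the brightest gene of the group, at 9.9, 9.7 and 10.0 in Prlr-/- and 11.4, 11.2 and 11 in Prlr+/+ islets. The calls of Dnmt3b and Ikzf4 were lost without any 1 of the 6 arrays (adjusted p up to 0.197 and 0.15), that of Hopx without Prlr-/- replicate 2 or 3 or Prlr+/+ replicate 1 or 3 (up to 0.0642) and that of Ncoa7 without Prlr-/- replicate 1 or 2 or Prlr+/+ replicate 2 (up to 0.0557). The gene that rose was Tcf24, a basic helix-loop-helix factor, at 7.0, 7.0 and 7.1 in Prlr-/- islets and at 6.1 in each Prlr+/+ array (log2 fold change 0.93 ± 0.148, adjusted p = 0.0244). It had the largest increase of the 5 higher genes, but its call was lost without any 1 of the 6 arrays (adjusted p 0.0897 to 0.121).

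Metabolic enzymes were the largest group, with 11 lower genes and 1 higher. Fmo1 and Fmo4, flavin monooxygenases that oxidise drugs and other nitrogen or sulphur compounds, fell together. Fmo1 was at 7.7, 7.3 and 7.8 in Prlr-/- and 9.3, 9.2 and 9.0 in Prlr+/+ islets (log2 fold change -1.57 ± 0.195, adjusted p = 0.00444). Fmo4 was at 6.5, 6.4 and 6.8 in Prlr-/- and 8.1, 8.1 and 7.7 in Prlr+/+ islets (log2 fold change -1.40 ± 0.172, adjusted p = 0.00416). Ogdhl, a relative of the 2-oxoglutarate dehydrogenase of the citric acid cycle, had tightly grouped values, 8.6, 8.7 and 8.6 in Prlr-/- and 10.1, 10.0 and 10.1 in Prlr+/+ islets (log2 fold change -1.43 ± 0.146, adjusted p = 0.00112).

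The other metabolic enzymes that fell act in several pathways. Ivd, of leucine breakdown (log2 fold change -1.47), and Gcsh, of glycine cleavage (-0.83), act on amino acids. Ehhadh acts in peroxisomal fatty acid oxidation (-0.97) and Aldh9a1 in the synthesis of carnitine (-0.87). Txnrd2 is the mitochondrial thioredoxin reductase (-0.67), Ggact cleaves gamma-glutamylamines (-0.83) and Enox1 is an oxidase of the cell surface (-0.83). Of 26 amino acid breakdown genes Ivd fell and 25 did not pass, and of 29 fatty acid oxidation genes Ehhadh fell and 28 did not pass, with medians of 0.03 and 0.00. The amino acid list does not hold Gcsh. Tph2, an enzyme of the rate-limiting step of serotonin synthesis, fell by 2.13 on the log2 scale and was the 1 of 23 serotonin genes that passed. The calls of Ehhadh (adjusted p up to 0.0571), Gcsh (0.0902) and Txnrd2 (0.0844) were each lost without Prlr-/- replicate 3 and without Prlr+/+ replicate 1. Those of Gcsh and Txnrd2 were also lost without Prlr-/- replicate 1, that of Gcsh without Prlr+/+ replicate 2, and that of Txnrd2 without Prlr-/- replicate 2 or Prlr+/+ replicate 3.

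The metabolic gene that rose was Ppp1r3c, a subunit that brings protein phosphatase 1 to glycogen. It was at 5.9, 5.7 and 6.1 in Prlr-/- and 5.2, 5.1 and 5.3 in Prlr+/+ islets (log2 fold change 0.70 ± 0.115, adjusted p = 0.0304). No other of 25 glycogen and glucose metabolism genes passed, and the list median was 0.03. The call held without Prlr-/- replicate 2 but was lost without any other 1 of the 6 arrays (adjusted p up to 0.15). Neither lipid and cholesterol synthesis (0 of 25 in limma; 2 lower and 6 higher at an unadjusted p under 0.05) nor glucose-stimulated secretion (0 of 23; 2 lower and 1 higher) had a called gene. The values furthest from 0 in the latter list were those of G6pc2, the islet glucose-6-phosphatase, at -0.43 (adjusted p = 0.199), and Ffar1, a fatty acid receptor, at 0.40 (adjusted p = 0.394).

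Channels, transporters and lipid carriers were lower in 8 cases and higher in 0. Aqp4, a water channel, was at 6.5, 6.5 and 6.3 in Prlr-/- and 7.9, 7.9 and 7.7 in Prlr+/+ islets (log2 fold change -1.40 ± 0.0988, adjusted p = 4.84e-05). Slc2a13, which carries myo-inositol with protons, was at 7.2, 6.7 and 6.8 in Prlr-/- and 8.4, 8.3 and 8.0 in Prlr+/+ islets (log2 fold change -1.33 ± 0.152, adjusted p = 0.00221). Car8, which lacks the activity of its carbonic anhydrase relatives and binds the inositol trisphosphate receptor, a calcium channel, had a log2 fold change of -1.6. It was the 1 of 15 genes of calcium release from the endoplasmic reticulum that passed. Lrrc8c, a subunit of volume-regulated anion channels, had a log2 fold change of -1.10, Slc26a3, a chloride and bicarbonate exchanger, of -0.93, and Slc50a1, a sugar transporter, of -0.80. Atp8a1 (-0.80) flips phospholipids across membranes and Serinc5 (-0.87) is a lipid scramblase. The Prlr-/- mean of Slc26a3, 3.97, was below the highest Y-linked value, so it lies in the range of genes that islets of female mice lack. The calls of Slc26a3 (adjusted p up to 0.114), Atp8a1 (0.135) and Serinc5 (0.104) were each lost in 5 of the 6 fits without 1 array, the exceptions being Prlr+/+ replicate 2 for Slc26a3, Prlr+/+ replicate 1 for Atp8a1 and Prlr+/+ replicate 3 for Serinc5.

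Adhesion, junction and cytoskeleton genes were lower in 7 cases and higher in 0. Cldn8, a tight junction claudin and a member of the signature, had the largest decrease of any named gene (log2 fold change -3.23), with Prlr+/+ values that varied from 6.9 to 8.6. Myo3a, an actin-based motor of sensory hair cells, was at 5.2, 5.2 and 5.4 in Prlr-/- and 6.5, 7.0 and 7.0 in Prlr+/+ islets (log2 fold change -1.57 ± 0.17, adjusted p = 0.0017). Neb, the giant protein of muscle thin filaments, had a log2 fold change of -1.5 and Dnah8, a heavy chain of axonemal dynein, of -1.13. These 3 genes are known for other tissues than islets. Cntn3, a contactin, was lower by 1.17 (log2 fold change -1.17), and smaller decreases were seen for Cdh7, a cadherin (-0.83), and Ezr, which links membranes to actin (-0.60). The call of Ezr was lost without each array except Prlr+/+ replicate 3 (adjusted p up to 0.0888). Cldn8, Dnah8, Cdh7 and Ezr were not called in the fit of the 6 P9.5 arrays by themselves. Of 24 matrix and junction genes, Cldn8 fell, Cd44 rose and 22 did not pass.

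Enzymes of glycans fell in 3 cases. B3galnt1, which makes the glycolipid globoside, was at 7.0, 7.0 and 7.1 in Prlr-/- and 8.6, 8.4 and 8.5 in Prlr+/+ islets (log2 fold change -1.47 ± 0.104, adjusted p = 4.84e-05). B3galt1, a galactosyltransferase (-0.67), and Cemip2, a hyaluronidase of the cell surface (-0.63), had small decreases. B3galt1 had a Prlr-/- mean of 4.33, below the highest Y-linked value. Its call was lost without any 1 of the 6 arrays (adjusted p up to 0.108), and that of Cemip2 without each array except Prlr+/+ replicate 3 (up to 0.117). Ubiquitin ligases gave 2 more lower genes, Lonrf3 of the signature (-1.73) and Rnf182 (-0.87).

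Genes of granules and membrane traffic moved in both directions, 5 lower and 1 higher. Chgb, a granin of the matrix of secretory granules, was at 10.2, 10.3 and 10.4 in Prlr-/- and 11.2, 10.9 and 11.1 in Prlr+/+ islets (log2 fold change -0.77 ± 0.108, adjusted p = 0.0111). Pcsk1n encodes proSAAS, an inhibitor of the prohormone convertase PC1. It was at 10.5, 10.4 and 10.4 in Prlr-/- and 9.8, 10.0 and 9.6 in Prlr+/+ islets (log2 fold change 0.63 ± 0.11, adjusted p = 0.0446). Thus the granin was lower and the convertase inhibitor higher. Pcsk1, the convertase itself, was at -0.43 (adjusted p = 0.238) and Chga, the sister granin, at 0.33 (adjusted p = 0.582), both log2 fold changes that did not pass. Both were chosen for mention after their values were seen. Of 18 granule and prohormone genes 16 did not pass, with a list median of 0.13. The call of Chgb was lost without Prlr-/- replicate 1 or 2 or Prlr+/+ replicate 1 or 3 (adjusted p up to 0.0759), and that of Pcsk1n without each array except Prlr+/+ replicate 2 (up to 0.215).

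The other lower genes of membrane traffic were Zdhhc22, a palmitoyltransferase (log2 fold change -0.97), Psd4, an exchange factor of the small GTPase ARF6 (-0.90), Tmtc4, a mannosyltransferase of the endoplasmic reticulum (-0.70), and Esyt1, which tethers that organelle to the plasma membrane (-0.60). Zdhhc22 was called through its dimmer probe set. The brighter one was at -1.17 but did not pass (adjusted p = 0.192). The calls of Zdhhc22 (lost without each array except Prlr+/+ replicate 3, adjusted p up to 0.102), Esyt1 (without any 1 array, up to 0.164) and Tmtc4 (without Prlr-/- replicate 1 or 3 or Prlr+/+ replicate 1, up to 0.0612) depended on single arrays. Genes of beta cell identity, transcription factors and the peptide hormone Ucn3, did not pass (0 of 17 in limma; 1 lower and 0 higher at an unadjusted p under 0.05). Mnx1, the lowest of them, was at -0.50 (adjusted p = 0.613).

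Among the lower genes, 6 have a function that is little described. Kirrel3os, a transcript opposite to Kirrel3, was at 4.9, 5.4 and 5.3 in Prlr-/- and 6.3, 6.3 and 7.2 in Prlr+/+ islets (log2 fold change -1.40 ± 0.217, adjusted p = 0.0219). B830017H08Rik was at 8.5, 8.6 and 8.4 in Prlr-/- and 9.9, 9.7 and 9.9 in Prlr+/+ islets (log2 fold change -1.33 ± 0.125, adjusted p = 6.08e-04). The Prlr+/+ arrays spread over a wider range for the former (SD 0.52) than for the latter (SD 0.12). Dipk1a (-1.23), Gnb1l (-1.07), Tmem255a (-1.03) and Rubcnl (-0.63) completed the group. A second probe set of Gnb1l had a log2 fold change of -0.30 and was not called. The calls of Kirrel3os (lost without any 1 Prlr-/- array, adjusted p up to 0.116), Dipk1a (without Prlr-/- replicate 2 or 3 or Prlr+/+ replicate 1 or 2, up to 0.105), Tmem255a (without each array except Prlr+/+ replicate 2, up to 0.231) and Rubcnl (without any 1 array, up to 0.196) depended on single arrays.

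**Figure D2:**
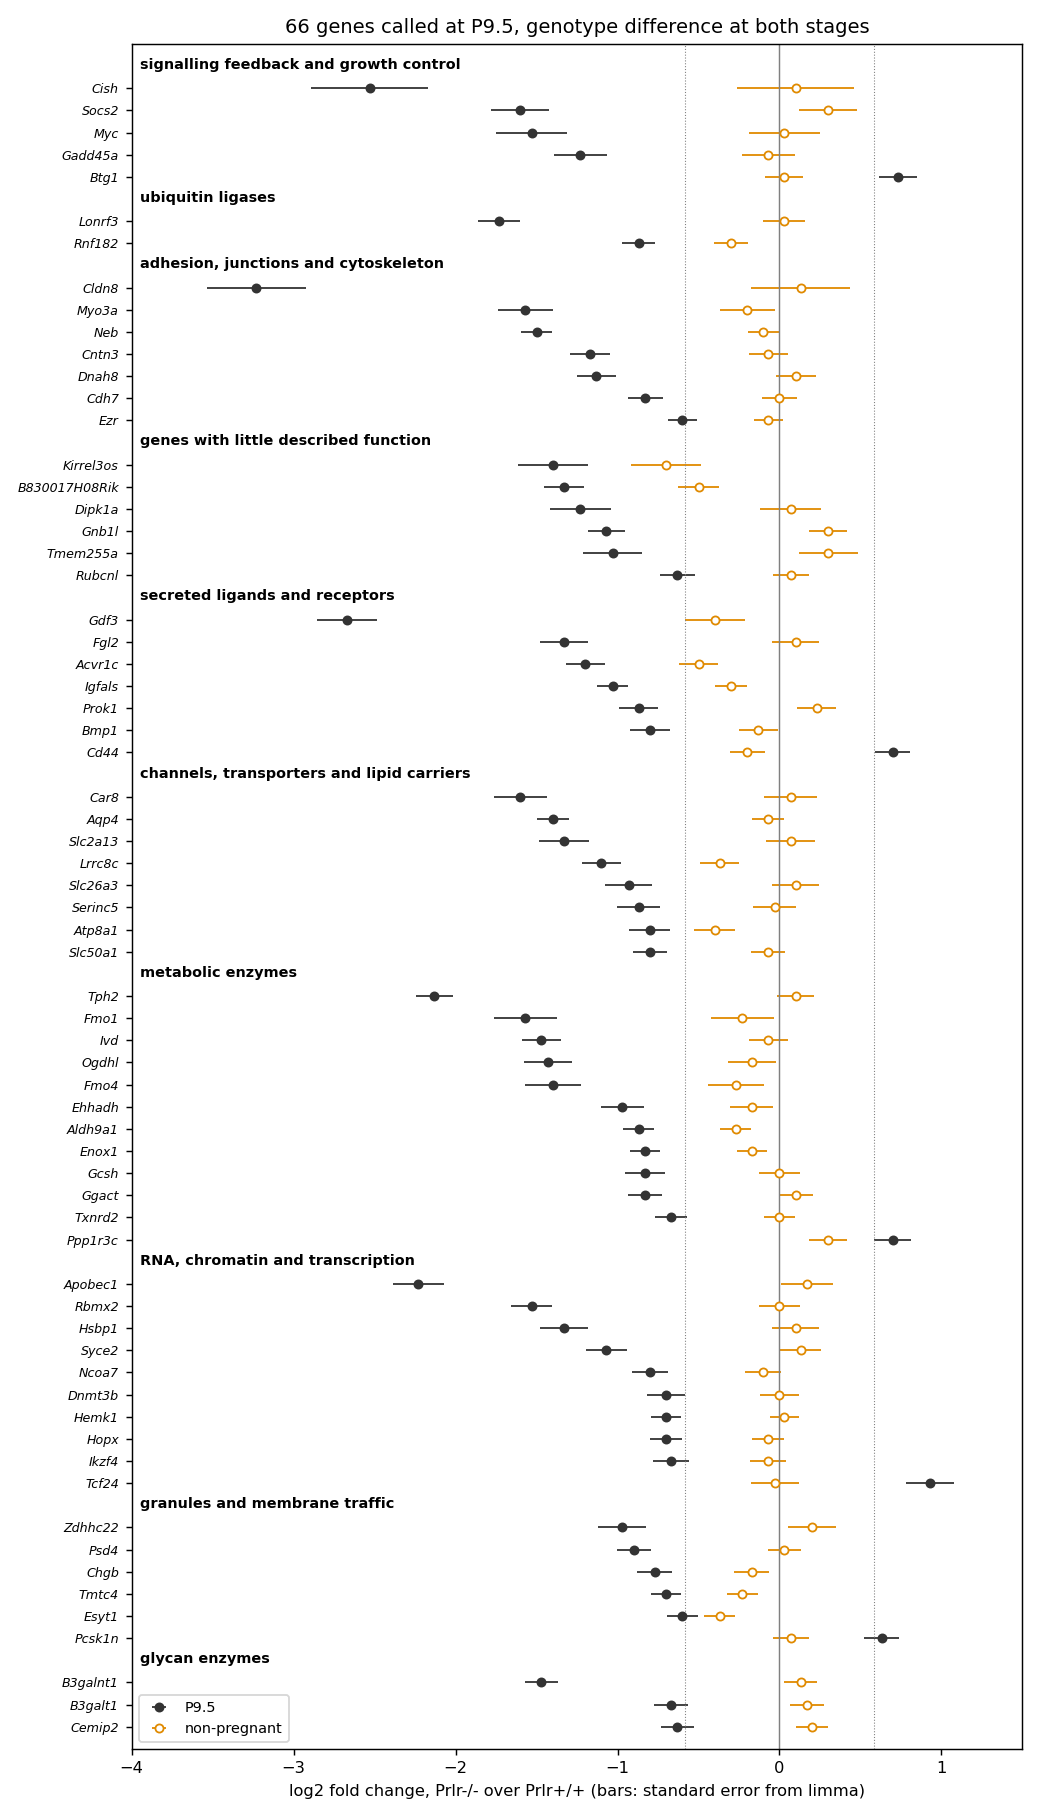
Log2 fold change between Prlr-/- and Prlr+/+ islets (horizontal axis) for the 66 called genes, grouped by function (vertical axis), at P9.5 (black) and in non-pregnant mice (orange). Bars are standard errors from limma and dotted lines mark the 1.5-fold minimum. At P9.5 the 61 lower genes lie at -3.23 to -0.60, whereas in non-pregnant mice they lie at -0.70 to 0.30.

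The signature of 12 pregnancy genes of islets, taken by the study from earlier work of the same group, is given in short. Cish, Cldn8, Tph2, Lonrf3, Car8, Neb, Ivd and Ehhadh are the 8 that fell. Tnfrsf11b (-1.20), Gbp8 (-1.17) and Matn2 (-1.13) had an adjusted p of 0.053, 0.0689 and 0.0909 over all probe sets and did not pass. Their unadjusted p in limma was 1.34e-04, 1.9e-04 and 3.05e-04. Tph1 was at -0.10. The paper tested a shorter list of probe sets at P9.5 and reports every signature gene except Tph1 as significantly lower. The part of that shorter list in the difference was not tested. At P9.5 Tph1 was at 4.5 in each Prlr-/- array and at 4.6, 4.5 and 4.7 in the Prlr+/+ arrays. These levels lie near the highest Y-linked value of 4.5. In non-pregnant Prlr+/+ islets Tph1 was at 4.6, 4.6 and 4.5, so it was not clearly higher at P9.5 with the receptor. Its value of -0.10 therefore cannot show whether Tph1 depends on the receptor. The signature thus makes up 8 of the 61 lower genes, and 53 lower genes lie outside it.

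Of the 82 called probe sets, 14 have no gene name in the annotation, 10 of them lower and 4 higher. The decreases of 3 were as large as those of the leading named genes. An unnamed probe set was at 5.5, 5.3 and 5.1 in Prlr-/- and 7.8, 7.7 and 7.7 in Prlr+/+ islets (log2 fold change -2.43) with 0.10 between the non-pregnant groups. The other 2 had log2 fold changes of -3.37 and -3.13 at P9.5 and of -2.40 and -2.23 in non-pregnant mice, so that they differed between the genotypes at both stages. One further probe set carries the symbols of several guanylate-binding proteins and was lower by 0.87 (log2 fold change -0.87). Of 24 measured interferon and guanylate-binding protein genes, 0 passed in limma, while 6 were lower and 1 higher at an unadjusted p under 0.05. The list median was -0.08, and Cxcl10, an interferon-induced chemokine, was at -1.0 (adjusted p = 0.504).

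The same genotype difference was then examined in islets of non-pregnant mice. Its group means come from the other 6 arrays, but both comparisons take their spread from 1 fit over all 12, so their tests are not independent. In non-pregnant islets 36 probe sets were called (0.101%), 3 of them lower (0.00845%) and the rest higher. The paper, which also tested all probe sets there, reports Prlr as the only gene that differed at the same thresholds. The cause of this difference in counts was not tested. Of the 61 genes that were lower at P9.5, 0 were called in limma. An unadjusted p under 0.05 was found for 11 of the 61, a larger share than the 10.9% of all genes. Apart from Gnb1l (0.30), these 11 lay below 0, the direction that they had at P9.5. The median log2 fold change of the 61 genes was 0.00, with 30 below 0, 26 above and 5 at 0, beside 47.8% of all genes below 0. The lowest were Kirrel3os at -0.70, Acvr1c and B830017H08Rik at -0.50, and Gdf3 and Atp8a1 at -0.40. Of the 5 higher genes 0 were called in limma and 1, Ppp1r3c (0.30), had an unadjusted p under 0.05.

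The change of the genotype difference between the stages was tested as the interaction in the same model, which called 28 probe sets (0.0788%), all below 0. It was called for 20 of the 61 lower genes and for 0 of the 5 higher genes. The interaction shares the 6 P9.5 arrays with the rule that chose these genes, so the count is a description. Its values are given under the results for a closer look. It was not called for Kirrel3os, Acvr1c and B830017H08Rik, whose values in non-pregnant mice were the lowest.

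How each gene moved with pregnancy is given side by side, since both pregnancy comparisons share arrays with the one between genotypes at P9.5. Pregnant Prlr-/- mice had the pellet, while none is described for non-pregnant Prlr-/- mice. Pregnancy and pellet therefore cannot be told apart in the Prlr-/- values. Against non-pregnant mice, Apobec1 was higher at P9.5 in Prlr+/+ islets by a log2 fold change of 2.70, Gdf3 by 2.40, Fmo1 by 2.23, Fmo4 by 2.03, Fgl2 by 2.00 and Socs2 by 1.97. In Prlr-/- islets the same differences were 0.30, 0.13, 0.90, 0.90, 0.57 and 0.07. Fmo1 and Fmo4 thus kept a part of the difference without the receptor (adjusted p = 0.00511 and 0.00265), as did Acvr1c, at 1.5 with and 0.80 without the receptor (adjusted p = 6.58e-04 in Prlr-/-). Myc was at 1.20 and -0.37, and Cish at 1.57 and -1.07. For Bmp1 the values were -0.07 and -0.73 (adjusted p = 0.00127 in Prlr-/-), so that the level with the receptor was near that of non-pregnant islets and the level without it was lower. Cd44 (-0.03 and 0.87) and Tcf24 (-0.23 and 0.73) differed from the non-pregnant level in Prlr-/- islets, with adjusted p of 2.46e-04 and 0.00357. Pcsk1n was at -1.07 and -0.50.

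The progesterone pellet of the Prlr-/- mice was looked at through 32 measured target and receptor genes of progesterone and glucocorticoids, a pair of steroids whose receptors bind like DNA sites. Of these 1, Gadd45a, fell, 0 rose and 31 did not pass, and the list median was 0.02. At an unadjusted p under 0.05, 2 were lower and 2 higher. Gadd45a, which also responds to DNA damage and other stress, stands in this list as 1 of many targets. The part of the pellet in its decrease was not tested. Genes outside the naming rule were chosen after their values were seen. Fkbp5, Tsc22d3 and Zbtb16, which respond strongly to these steroids in many tissues, had log2 fold changes of 0.27, 0.17 and 0.27, each with an adjusted p of 0.977. Tat, a liver enzyme known for its glucocorticoid response, had the highest value, 0.77 (adjusted p = 0.694), and Cebpd the lowest after Gadd45a, -0.73 (adjusted p = 0.531). Pgr, the progesterone receptor, had a log2 fold change of -0.20 and lay at 4.3 to 4.8 in all 6 arrays, near the highest Y-linked value of 4.5. No group of Prlr+/+ mice with a pellet is among the 4 groups, and these counts do not separate pellet and genotype.

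The remaining lists had no called gene. Of 14 cytokine receptors 0 passed in limma (1 lower and 3 higher at an unadjusted p under 0.05), with Il13ra1 at -0.33 and Il6ra at 0.33 as the extremes. Heat shock genes had the highest list median of the functional lists, 0.33, with 0 of 20 passing in limma. At an unadjusted p under 0.05, 7 of the 20 were higher, beside 662 of all 19938 genes. All members lay above 0, at 0.10 to 0.77. Dnajb1 (0.77, adjusted p = 0.899) and Hsph1 (0.73, adjusted p = 0.703) led that list, and its array means were 8.14 to 8.41 in Prlr+/+ and 8.53 to 8.91 in Prlr-/- islets. In non-pregnant mice the genotype difference was 0.07 for Dnajb1 and 0.67 for Hsph1 (adjusted p = 0.938 and 0.319). Genes of endoplasmic reticulum stress had a median of 0.07, and 0 of 27 passed in limma. At an unadjusted p under 0.05, 1 was lower and 1 higher. Immediate early genes had a median of 0.00, with 0 of 23 passing and 0 and 0 at that unadjusted p. Some varied between arrays of 1 genotype. Fos was at 6.5, 8.0 and 5.5 in Prlr-/- and 5.7, 7.8 and 5.8 in Prlr+/+ islets. Egr1 was at 6.2, 7.4 and 6.1 in Prlr-/- and 5.9, 7.3 and 6.0 in Prlr+/+ islets. Both were highest in replicate 2 of each genotype, and were chosen for mention after their values were seen.

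**Figure D3:**
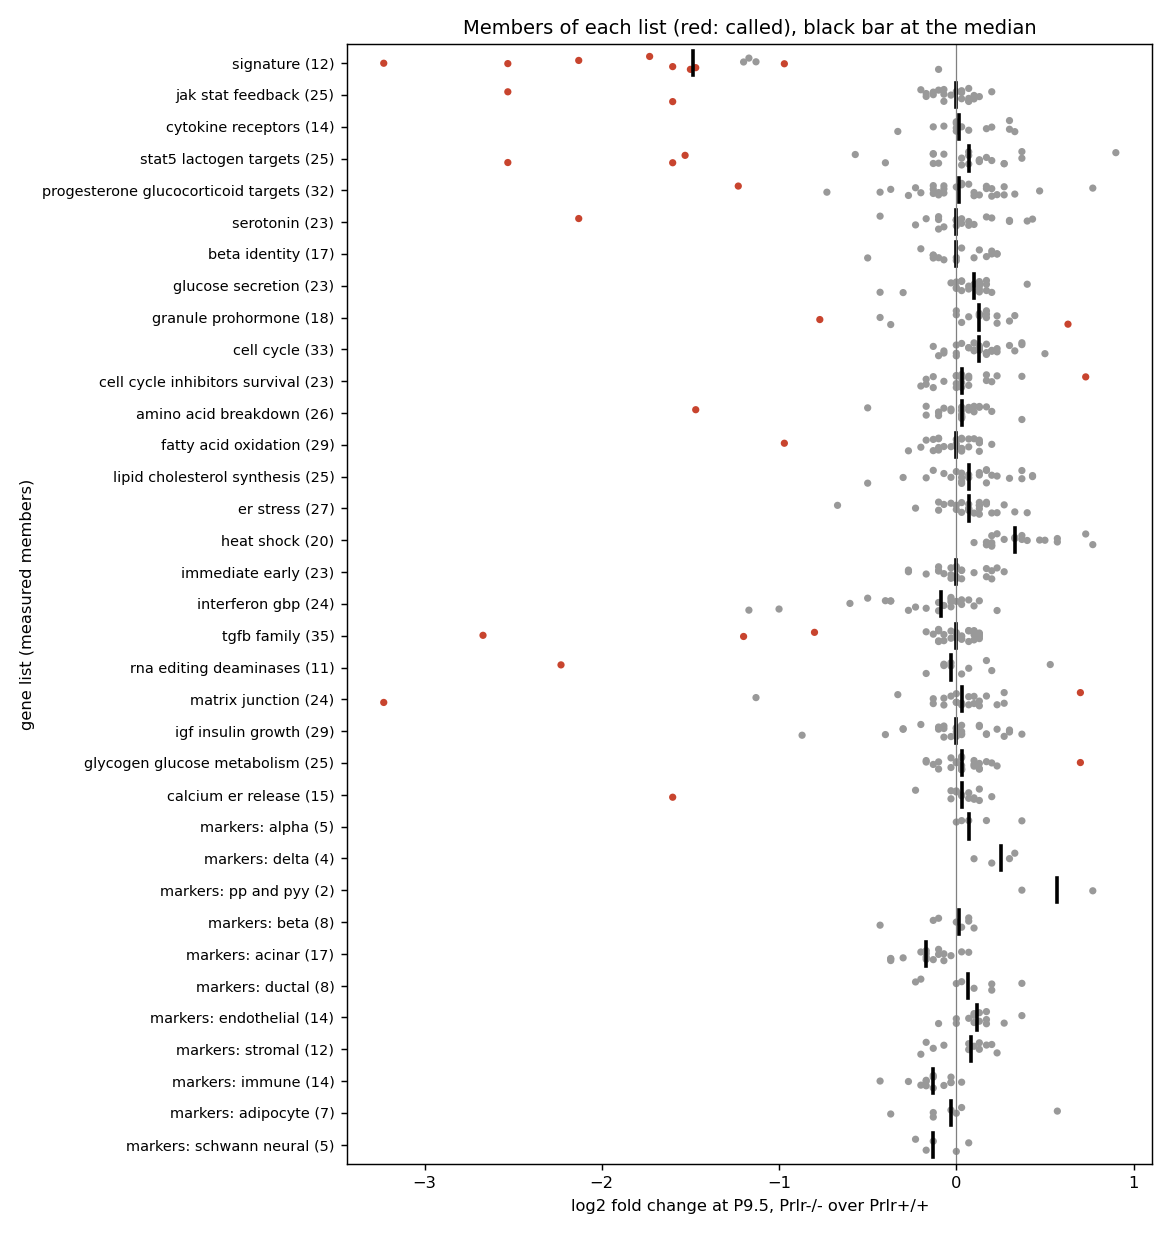
Log2 fold change at P9.5 (horizontal axis) of every measured member of each gene list and cell marker list (vertical axis, number of members in brackets). Grey points did not pass, red points were called and black bars are list medians. Outside the signature, the lists with called genes have 1 to 3 red points apart from a grey cluster around 0, and the 12 signature genes have their median at -1.48.

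Markers of cell types were compared over whole lists. No marker passed in limma in any of 11 lists (3 lower and 7 higher at an unadjusted p under 0.05). Beta cell markers had a median of 0.02 (8 genes), alpha cell markers of 0.07 (5), endothelial markers of 0.12 (14), stromal markers of 0.08 (12), ductal markers of 0.07 (8), acinar markers of -0.17 (17) and immune markers of -0.13 (14). The hormones of minor islet cells were not called. Ppy, pancreatic polypeptide, was at 12.6 in each Prlr-/- array and at 12.6, 11.2 and 11.7 in the Prlr+/+ arrays (log2 fold change 0.77, adjusted p = 0.78), and Pyy, peptide YY, was at 0.37 on that scale (adjusted p = 0.541). The Ppy groups touch at 12.6. Delta cell markers had a median of 0.25 over 4 genes. The part of cell composition in the called genes was not tested.

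Several lower genes lie side by side in the genome, which was noticed after the calls were known. In the RefSeq order of protein-coding genes (GRCm38.p6), 59 of the lower genes could be placed, and 10 of them form 5 adjacent pairs. The pairs are Fmo4 and Fmo1 on chromosome 1, Apobec1 and Gdf3 on chromosome 6, Cish and Hemk1 on chromosome 9, Ggact and Tmtc4 on chromosome 14, and Txnrd2 and Gnb1l on chromosome 16. Of 106 measured genes next to a lower gene, 10 were lower themselves (9.43%), beside 0.301% of all genes. The annotated spans of the 2 genes overlap in 0 of the 5 pairs. The nearest measured genes on the outer sides did not pass in any pair. Around Apobec1 and Gdf3, Mfap5 was at 0.07 and Dppa3 at 0.17, and around Cish and Hemk1, Mapkapk3 was at 0.10 and 6430571L13Rik at -0.27. Fmo2, which lies next to Fmo1 and belongs to the same gene family, was at -0.37 (adjusted p = 0.89). The size of the decrease was like in some pairs (-1.40 and -1.57 for Fmo4 and Fmo1) and unlike in others (-2.53 and -0.70 for Cish and Hemk1).

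**Figure D4:**
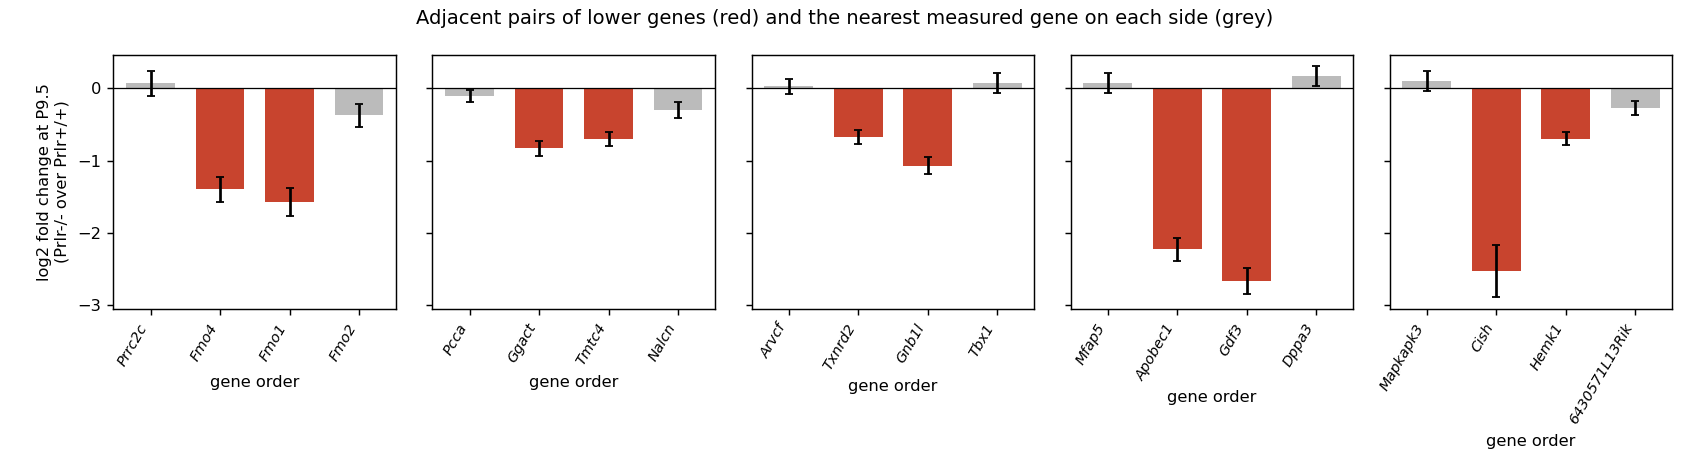
Log2 fold change at P9.5 (vertical axis) of the 5 adjacent pairs of lower genes (red) and of the nearest measured gene on either side (grey), in genome order (horizontal axis, not to scale). Error bars are standard errors from limma. The red bars reach from -0.67 to -2.67, and the grey bars stay between -0.37 and 0.17.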

How the data were processed

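The 12 arrays were made into expression values by the authors with robust multichip analysis in aroma.affymetrix, which corrects the background, normalizes by quantiles and summarises the probes of a set. The deposited values are log2 expression, rounded to 0.1, and the raw arrays were not used. Of 35511 probe sets, 21789 carry 1 gene symbol, 1621 several and 12101 none, and 486 equal an earlier one in all arrays. Symbols were updated through Entrez identifiers (21698 matched). For the lists and the shares over all genes, the brightest probe set on average stood for a gene with several. A gene counted as called if any of its probe sets was called, and its called probe set of largest fold change stood for it. Precision is limited by the number of arrays.

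The 4 group means were fitted in 1 model without covariates in limma 3.58.1 in R 4.3.3 (8 residual and 3.61 prior degrees of freedom) and tested on simulated data. P-values were adjusted over all probe sets. An exact permutation test of 3 against 3 cannot go below a two-sided p of 0.10. The study itself tested fewer probe sets at P9.5, a list that was not used here.

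The members, lists and tests were chosen with earlier results of these data known, and the functional groups of called genes after the calls were seen. Named are all called genes, with values in every array for the 14 largest decreases outside the signature, all increases and the called members of the lists on JAK/STAT, STAT5 targets, granules, progesterone, the TGF-beta family and deaminases; from lists without a called gene up to 2 were named. Alternatives were the 6 P9.5 arrays alone, a replicate block, leaving out each array, leaving out the dimmest 40%, named probe sets only, median centring, quantile normalization, an intensity trend, array weights, other fold minimums, noise up to 0.05 and equal probe sets counted once. Leaving out the non-pregnant arrays was added after seeing the data.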

Additional observations from a re-analysis of the deposited data

Results flagged for a closer look

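For 20 of the 61 lower genes the genotype difference at P9.5 was larger than that in non-pregnant mice by a test of the difference itself (the interaction in limma, adjusted over all probe sets). Since these genes were chosen on the P9.5 arrays that the interaction uses, the values are a description. In non-pregnant mice the genotype difference of these genes lay between -0.40 (Gdf3) and 0.30 (Socs2 and Gnb1l).

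Among the called interactions, the largest on the log2 scale was that of Cldn8 (-3.37, adjusted p = 0.0126). Next came the deaminase Apobec1 (-2.40, adjusted p = 0.00203) and the growth factor Gdf3 (-2.27, adjusted p = 0.00756). Tph2 (-2.23, adjusted p = 2.76e-04) and the cytokine signal inhibitor Socs2 (-1.90, adjusted p = 0.0171) followed. Lonrf3 (-1.77, adjusted p = 0.00393) and Car8 (-1.67, adjusted p = 0.0241) completed this group. The interaction of Cish was -2.63 and that of Myc -1.57, but neither was called (adjusted p = 0.111 and 0.117).

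The next group of called interactions was of medium size. It held the globoside enzyme B3galnt1 (-1.6, adjusted p = 0.00203) and the spliceosome protein Rbmx2 (-1.53, adjusted p = 0.00756). Fgl2 and Hsbp1 were each at -1.43 (adjusted p = 0.0307 and 0.0295). Neb, Ivd and the inositol carrier Slc2a13 were each at -1.40 (adjusted p = 0.00215, 0.00922 and 0.0458). Gnb1l (-1.37, adjusted p = 0.00837) and the water channel Aqp4 (-1.33, adjusted p = 0.00393) completed the group.

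The smallest called interactions were those of Dnah8, Syce2, Cntn3 and Prok1. They were at -1.23, -1.20, -1.10 and -1.10 (adjusted p = 0.0256, 0.0352, 0.0499 and 0.0458). A second probe set of Gnb1l was not called at P9.5.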

How the results depend on the processing

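No called gene changed direction under any alternative, and 23 of the 66 genes, all lower, were called in each of the 24 alternatives; 3 more lost their call only at a fold change of at least 2. The count of 82 called probe sets (73 lower, 9 higher; 61 and 5 genes) fell to 39 (36 and 3; 28 genes lower and 1 higher, 28 of the 66 kept) with the 6 P9.5 arrays alone, and to 41 (40 and 1; 33 and 0 genes, 33 kept) at a fold change of at least 2. Without 1 array at a time it was 47 to 85 (46 to 77 lower and 0 to 8 higher; 39 to 64 genes lower, 0 to 6 higher, 39 to 64 of the 66 kept), and the interaction was called for 10 to 16 of the lower genes instead of 20. With named probe sets only, 96 were lower and 16 higher (16 higher genes, 43 interactions), and with array weights 104 and 14 (11 higher genes, 31 interactions). Median centring and quantile normalization each gave 3 higher genes. The median of the lower genes in non-pregnant mice moved from 0.00 to -0.10 with median centring and to -0.07 without the dimmest 40%. Of genes that did not pass, Jak2 ranged from -0.02 to 0.18 and Stat5a from -0.02 to 0.08 without 1 array, and Stat5b, at the same value in all 6 P9.5 arrays (a difference of 0.00), was at -0.01 with quantile normalization and 0.01 with added noise. The cause of these shifts was not tested, apart from the fewer arrays or probe sets that an alternative fits.

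The replicate numbers were not used to pair the arrays in the main fit. Deviations of arrays with the same number correlated at over 0.1 in 7 of 18 pairs (1 of 3 at P9.5, -0.11 to 0.32). Fos and Egr1 were highest in replicate 2 of both genotypes at P9.5, as given above. Whether arrays of the same number were handled together was not tested. With a replicate block 67 probe sets were called, 64 lower and 3 higher, with 1 higher gene and 14 interactions.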
